A study of Mus musculus with 6 samples.

Results

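The hearts of mice fed a NASH diet (N group, 2 libraries) were compared with the hearts of mice fed chow (C group, 2 libraries), gene by gene, in 4 of the 6 heart RNA-seq libraries of the series. The remaining 2 libraries, from mice that had the NASH diet together with pemafibrate (NP group), entered the model for the estimate of spread and are given beside the results for reference. The animals were C57BL/6J male mice, and no group carried a genetic change. The N diet combined high fat, high cholesterol and high sucrose with a bile acid. The NP group received 0.1 mg/kg of pemafibrate, a selective modulator of the nuclear receptor PPARα, in the N diet, and the C group received chow. The labels give 3 weeks of feeding, whereas the methods of the study give a longer period. The labels name heart as the tissue, whereas their protocol for RNA extraction names liver. No source used here says whether the 2 libraries of a group came from separate animals, so that the P values measure the spread between libraries, which may be technical.

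Each library gave an FPKM value, a read count scaled to transcript length and library size, for 24346 genes, and 12923 genes with a mean of at least 0.5 FPKM over the 6 libraries were tested. The depth, estimated from the steps between low FPKM values, came to 26100000 and 21400000 reads for the C group, against 8690000 and 8760000 for the N group, so that depth and diet cannot be told apart in this comparison. The NP libraries, with 8220000 and 8450000 reads, were as shallow as the N libraries. The libraries also differed in atrial transcripts. The summed FPKM of 18 atrial markers came to 1030 and 883.2 for the C group, 4910 and 6312 for the N group, and 4929 and 7571 for the NP group. The ventricular sum came to 34770 and 37320 for the C group, against 19150 and 24370 for the N group. The second C library stood apart through liver transcripts: the 12 hepatocyte markers summed to 711.3 there, to 58.85 in the first C library, and to 42.11 and 29.38 in the N libraries. Cardiac genes were abundant in every library, with Myh6, the adult myosin heavy chain, at 5501 and 5024 FPKM in the C group and 5671 and 3841 FPKM in the N group.

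Relative to the C group, 191 genes were higher in the N group and 9 were lower at an adjusted P value under 0.05 (limma, Benjamini-Hochberg), which is 1.48% and 0.0696% of the genes tested. Of the 191 higher genes, 73 belonged to 5 lists: MHC class I, MHC class II, interferon-inducible GTPases, antiviral interferon-stimulated genes, and the JAK-STAT and IRF regulators. At a looser rule, in which the N and C libraries did not overlap and differed by at least 1.5-fold, 657 genes (5.08%) were higher and 305 (2.36%) were lower. The median difference of all genes was −0.03 on the log2(FPKM + 1) scale, on which every difference below is given; this scale understates the change of genes with few reads. The count of calls varied with the libraries used: it was 49 without the second C library, 82 without the second N library and 125 without the first N library. Without the first C library it was 183, but 95 of these were lower and 88 higher, and 11 of the 12 hepatocyte markers were among the lower ones. Atrial content and diet could not be separated statistically. With the mean level of the atrial markers as a covariate, 0 genes passed the threshold in limma, 2672 had an unadjusted P value under 0.05, and the median standard error rose from 0.153 to 0.67. The median differences of the interferon and MHC lists under the covariate were 1.93 for class I, 2.36 for class II, 2.23 for the GTPases and 0.80 for the antiviral genes. Other medians shifted widely, from −0.50 to 1.72 for the PPARα-responsive genes and from −0.36 to −1.56 for the respiratory chain. The circadian clock moved from −0.105 to −3.32, whereas fatty acid oxidation stayed, at −0.276 and −0.271. The mean atrial level was 3.36 and 3.74 in the C group, against 6.02 and 6.38 in the N group. With groups so far apart, these medians cannot separate atrial content from diet.

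**Figure D1:**
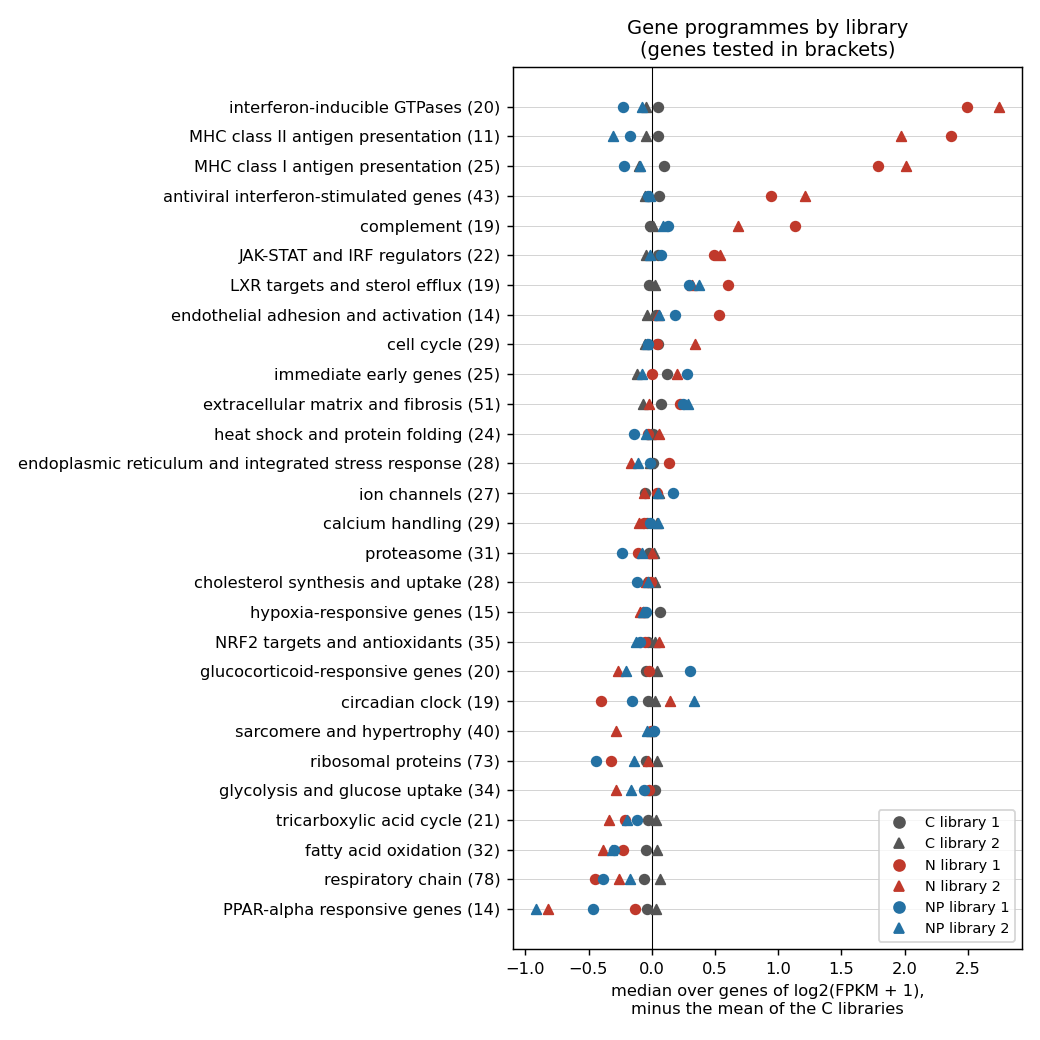
Median difference from the C group (x axis, log2(FPKM + 1)) of the genes of 28 programmes in each of the 6 libraries; rows are ordered by the N minus C median, and grey, red and blue mark the C, N and NP groups. The interferon and MHC programmes lie far to the right in both N libraries only, with N minus C medians of up to 2.62, whereas the respiratory chain and fatty acid oxidation lie to the left, at −0.36 and −0.28, with the NP libraries beside them.

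Interferon gamma and type I interferons act through JAK kinases and STAT transcription factors, which bind GAS and ISRE elements in the promoters of their target genes. Among these targets are GTPases that act against intracellular pathogens, the machinery that loads peptides on MHC class I, and, through the transactivator CIITA, the MHC class II genes that macrophages and other antigen-presenting cells use. Windows upstream of genes for immunity-related GTPases that were higher in the N group, and of Gm12185 and B2m, are shown first, since they hold letters of these elements. Capitals mark the letters of a GAS (TTCNNNGAA) or an ISRE-like (GAAANNGAA) motif on either strand, each sequence runs 5′ to 3′ along the gene, and the sequences are from RefSeq on GRCm38.p6.
Igtp: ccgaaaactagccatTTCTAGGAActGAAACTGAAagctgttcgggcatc
Irgm2: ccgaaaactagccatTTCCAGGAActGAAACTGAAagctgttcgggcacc
Gm12185: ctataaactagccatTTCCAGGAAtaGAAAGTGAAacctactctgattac
Tgtp2: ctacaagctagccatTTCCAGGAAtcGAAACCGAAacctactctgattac
Tgtp1: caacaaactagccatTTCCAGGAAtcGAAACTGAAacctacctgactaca
Gm12250: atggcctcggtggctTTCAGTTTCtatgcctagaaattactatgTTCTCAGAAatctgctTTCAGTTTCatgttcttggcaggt
Irgm1: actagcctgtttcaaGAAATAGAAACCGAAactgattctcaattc
B2m: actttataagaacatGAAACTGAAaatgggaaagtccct

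All but the last window are on chromosome 11: Igtp chr11:58199496-58199545 (plus strand), Irgm2 chr11:58214887-58214936 (plus), Gm12185 chr11:48927234-48927283 (minus), Tgtp2 chr11:49064259-49064308 (minus), Tgtp1 chr11:48992300-48992349 (minus), Gm12250 chr11:58183738-58183821 (plus) and Irgm1 chr11:48871421-48871465 (minus). The B2m window is chr2:122147533-122147571 (plus). In the first 5 windows the GAS letters began 11 bases before the ISRE-like letters on the same strand. This spacing was chosen after these windows were seen, and the 5 genes are related copies with similar flanks, so that they are not independent cases. Gm12250 held the letters in another arrangement, with GAS at −61 and ISRE-like letters at −90 and −45, and the window of Ifi47, also higher, held neither. Iigp1 and Gm4951 complete the 9 called members of the list of immunity-related GTPases used here. Gm12185 and F830016B08Rik, also called, were not on this list. Irgm1 held a pair of overlapping ISRE-like matches, and B2m, the light chain of MHC class I, held a single one at position −139 from the start site. Over the 300-base promoter windows, which run from 250 bases before to 50 bases after the start, ISRE-like letters occurred in 42 of the 138 higher genes with a window (30.4%) and in 7.18% of all tested genes with a window. GAS letters occurred in 19.6% and 6.9%, the E-box CACGTG in 1.45% and 10.2%, and the CRE TGACGTCA in 0.725% and 3.2%. None of these 4 motifs occurred in the windows of the 13 atrial markers or of the 6 lower genes that had one. These are matches of letters and were not tested as binding sites.

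The interferon-inducible GTPases showed the largest differences of all programmes. Of 20 tested members, 19 were higher in the N group and 0 were lower, with a median difference of 2.62 against −0.03 for all genes. Igtp, an immunity-related GTPase of vacuole defence (chromosome 11, 58199556 to 58207592), was 9.47 and 7.74 FPKM with chow, 397 and 601 FPKM in the N group, with 6.46 and 8.97 FPKM in the NP group. The mean in the N group was 58-fold that in the C group, a difference of 5.68 ± 0.24 (SE) with an adjusted P value of 0.000959 in limma. The N libraries were far above all other libraries, and the NP libraries lay within or near the range of the C libraries. Its relative Irgm1 was 11.3 and 10.7 FPKM in the C group and 156 and 281 FPKM in the N group. Irgm2 was 10.7 and 10.2 FPKM in the C group and 175 and 252 FPKM in the N group. Gm12185, with 0.297 and 0.162 FPKM in the C group, was 32.8 and 54.9 FPKM in the N group. Differences for these 3 genes were 4.13, 4.21 and 5.15. Tgtp2 and Tgtp1 differed by 3.32 and 2.16. Of 11 listed guanylate-binding proteins, which attack vacuoles and bacteria in the cytosol, 10 were tested and all 10 were called. Gbp10 was 1.01 and 0.580 FPKM in the C group against 70.5 and 61.9 FPKM in the N group. Gbp8, at 0.101 and 0.082 FPKM against 2.01 and 3.05 FPKM, passed the filter only through the N libraries. So did Gbp2b, at 0.014 and 0 FPKM against 3.72 and 2.10 FPKM, which favours a call of both genes. Mx2 was the only tested member of the list that did not pass, with a difference of 0.20. Many of these genes have near-identical copies, so that the share of reads given to each one is uncertain. Of the genes that the rule names for size alone, F830016B08Rik had the smallest adjusted P value of the comparison, 4.14e-05 (limma), and rose from 6.26 and 5.98 FPKM to 575 and 635 FPKM.

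Antigen presentation by MHC class I was raised in its heavy chains, peptide supply and regulator. Of 25 tested genes, 19 were higher and 0 lower, with a median difference of 1.90. Among heavy chains, 8 of 10 were called. H2-K1, a classical class I heavy chain (chromosome 17, 33996012 to 34000619), was 109 and 91.9 FPKM in the C group, 956 and 933 FPKM in the N group, with 76.9 and 104 FPKM in the NP group, with a difference of 3.23 ± 0.17 and an adjusted P value of 0.0013 in limma. H2-D1 differed by 2.24, and the nonclassical H2-T23 and H2-M3 by 1.98 and 1.40. B2m rose from 347 and 305 FPKM to 2301 and 2874 FPKM. The H2 genes are similar in sequence, which again makes the split between members uncertain. Of the genes for peptide supply, Tap1, a subunit of the peptide transporter, was 4.63 and 3.21 FPKM in the C group and 44.4 and 45.1 FPKM in the N group. Tap2, Tapbp, Tapbpl and the trimming peptidase Erap1 differed by 1.57, 1.36, 1.75 and 1.07. The inducible proteasome subunits Psmb8, Psmb9 and Psmb10 differed by 3.06, 2.95 and 2.23, and the activator subunit Psme2 by 1.28. By contrast, none of the 31 tested subunits of the constitutive core and the regulatory particle of the proteasome passed, with a median of −0.04. The median was −0.13 over the 14 core subunits and −0.01 over the 17 of the regulatory particle. Nlrc5, the transactivator of class I genes, was 1.32 and 0.843 FPKM in the C group and 7.97 and 8.11 FPKM in the N group. The general chaperones on the list, Canx, Calr and Pdia3, differed by −0.08, 0.00 and 0.20 and did not pass.

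MHC class II genes, which are characteristic of antigen-presenting cells, were higher in 8 of 11 tested members and lower in 0, with a median of 2.18. H2-Aa, a class II chain, was 69.6 and 65.2 FPKM in the C group, 414 and 374 FPKM in the N group, with 49.8 and 51.3 FPKM in the NP group. The invariant chain Cd74 was 131 and 121 FPKM in the C group and 916 and 636 FPKM in the N group. The peptide-exchange chains H2-DMa and H2-DMb1 differed by 2.18 and 2.26. Ciita, the transactivator of the class II genes, was 0.601 and 0.582 FPKM in the C group and 4.73 and 4.52 FPKM in the N group. Ctss, a protease that processes the invariant chain, differed by 1.58. The costimulatory Cd80 and Cd86 differed by 0.19 and 0.48 and did not pass.

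Regulators of the response differed by type. Of 12 transcription factors, 8 were higher, while 0 of 4 receptors and 0 of 3 kinases passed in either direction. Irf7, a transcription factor that amplifies the interferon response, was 10.3 and 6.63 FPKM in the C group, 45.0 and 48.3 FPKM in the N group, with 8.98 and 7.83 FPKM in the NP group. Its difference was 2.36 ± 0.20, with an adjusted P value of 0.00578 in limma. Batf2, Irf9, Irf1, Stat2, Irf8 and Irf5 differed by 2.52, 1.69, 1.55, 1.42, 1.21 and 1.08. The receptor subunits Ifngr1, Ifngr2 and Ifnar1 differed by 0.08, −0.26 and 0.03, and the kinases Jak1, Jak2 and Tyk2 by 0.08, 0.00 and −0.01. Of the 22 regulators, 8 were called, but 4 without the first C library, 3 without the second, and 2 without the second N library.

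Antiviral genes were called less completely, with 19 of 43 higher, 0 lower, and a median of 1.14. Zbp1, a sensor of Z-form nucleic acid, was 0.823 and 0.940 FPKM in the C group and 10.3 and 14.6 FPKM in the N group. Ifit1 and Ifit3, which act on viral RNA, differed by 2.38 and 2.43. The interferon-inducible PARP group, with its partner Dtx3l, was called in 5 of 5 members. The RNA and DNA sensors passed in 2 of 8 members. Oas2, Slfn5 and Ifi205 differed by 0.16, 0.30 and 0.01. This list varied with single libraries: with the second C library left out, 0 of its 43 members were called, with 9 called without the first C library and 7 without the second N library. Without the second C library the calls were 10 of the 20 GTPases, 7 of the 25 class I genes and 5 of the 11 class II genes. Median differences stayed positive, at 1.67 for class I, 2.08 for class II and 2.49 for the GTPases. The median NP minus C difference was −0.14 for the GTPases, −0.16 for class I, −0.31 for class II and −0.02 for the antiviral genes.

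**Figure D2:**
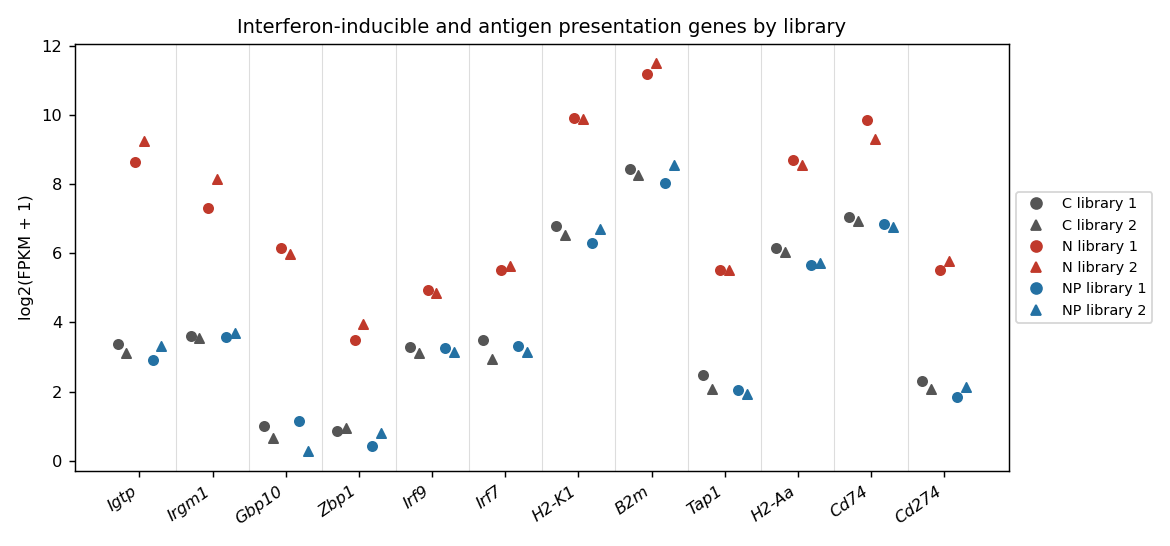
Level of 12 interferon-inducible and antigen presentation genes in each library (y axis, log2(FPKM + 1)), with C in grey, N in red and NP in blue. For each gene both N libraries are above all 4 others, and Igtp, at 397 and 601 FPKM, is the gene with the widest gap among those shown.

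Complement genes, which opsonise particles and recruit leukocytes, had 3 of 19 members higher and 0 lower, against 1.48% of all genes tested that were higher. The looser rule of no overlap and at least 1.5-fold was met upwards by 16, against 5.08% of all genes tested. C4b, of the classical pathway, was 4.04 and 4.83 FPKM in the C group and 29.8 and 16.1 FPKM in the N group, with a difference of 2.08 and an adjusted P value of 0.0316 in limma. C2 and C1qb differed by 1.45 and 1.19. Without the second C library or either of the libraries 1 of the C and N groups, 0 of the 19 passed. Cd274, which encodes the checkpoint ligand PD-L1, was 3.95 and 3.21 FPKM in the C group and 45.0 and 53.6 FPKM in the N group, a 13.8-fold ratio of means. The adhesion molecules Vcam1 and Icam1 differed by 0.96 and 1.08, with adjusted P values of 0.0783 and 0.0807 in limma.

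Markers of leukocytes differed alongside these genes, and more cells of a type cannot be told apart from more RNA per cell in whole tissue. The 20 macrophage markers summed to 471.9 and 429.3 FPKM in the C group, 854.3 and 732.5 FPKM in the N group, with 383.7 and 348.3 FPKM in the NP group. Of 19 tested, 6 were higher: Adgre1, Mrc1, C1qb, Fcgr1, Timd4 and Lgals3. These calls rested on all libraries, with 1 left without either C library and 0 without either N library. All 19 had a positive difference, as had 5789 of the 12923 genes tested. Their median was 0.73, against −0.03 for all genes, and Cd163 was at the low end with 0.10. Markers of natural killer and cytotoxic cells summed to 0.934 and 1.22 FPKM in the C group and 10.9 and 14.4 FPKM in the N group. Of 12 listed, 3 were tested, and Nkg7 and Gzmb were called. B cell markers summed to 1.99 and 1.54 FPKM against 8.71 and 13.4 FPKM, and T cell markers to 3.48 and 2.86 FPKM against 8.96 and 7.55 FPKM. Of 12 B cell markers 4 were tested and 0 called, and of 14 T cell markers 2 were tested and 0 called. The looser rule, met upwards by 5.08% of all genes, was met by 4 B cell and 0 T cell markers. The filter used the mean of all 6 libraries, so that markers this low could enter the test through the N libraries. That favours a call, and these counts are no independent evidence of a difference. The part of leukocytes in the interferon and MHC differences was not tested. Among antioxidant and oxidase genes, Cybb, the catalytic subunit of the phagocyte NADPH oxidase, rose from 2.72 and 3.26 FPKM to 9.89 and 9.36 FPKM. Ncf1 and Ncf4, cytosolic partners, differed by 0.74 and 0.89 and did not pass.

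A second group of higher genes consisted of atrial transcripts. Of 17 tested atrial markers, 8 were higher and 0 lower, with a median of 1.08, against 1.35 for NP minus C; 5 were called without the first C library and 4 without any of the other three C and N libraries. Sln, the sarcolipin of atrial sarcoplasmic reticulum (chromosome 9, 53850251 to 53853849), was listed at 0 in 1 C library and was 0.450 FPKM in the other. It was 250.3 and 462 FPKM in the N group and 287 and 518 FPKM in the NP group. Myl7, the atrial regulatory light chain, was 1.51 and 6.70 FPKM in the C group, 857 and 1193 FPKM in the N group, with 781 and 1319 FPKM in the NP group. Nppa, the atrial natriuretic peptide, which is also raised in stressed ventricles, was 303 and 158 FPKM in the C group and 1992 and 2647 FPKM in the N group. Myl4, Mybphl, Bmp10 and Dkk3 differed by 7.09, 5.64, 5.05 and 3.83, and Gja5, a gap junction protein of atrial and conducting myocytes, by 1.08. The C libraries held almost none of the atrial light chains. Nppb, the other natriuretic peptide of the hypertrophy list, differed by −0.50, and Myh7, the fetal myosin heavy chain, by −0.49; neither passed. Of the 40 genes for sarcomere and hypertrophy, Nppa alone was called. Mesothelial markers, from the covering of the heart, summed to 10.4 and 2.19 FPKM in the C group and 37.1 and 24.1 FPKM in the N group, with Lrrn4 called among 7 tested. Sln and Gja5 were also the only called members of the 29 calcium handling and 27 ion channel genes. The call of Gja5, with an adjusted P value of 0.0409 in limma, was less stable. It was lost with no filter, a filter at 5 FPKM, quantile normalization, shifting to the same median, or the N and C libraries alone. Sln kept its call under each of these. White fat transcripts differed too: Adipoq, the adiponectin gene, was 0.593 and 1.12 FPKM in the C group and 16.0 and 14.6 FPKM in the N group, with an adjusted P value of 0.116 (limma), and 0 of 10 tested markers of white adipocytes passed. The sum of those markers, most of it Fabp4, was no higher, at 1485 and 1484 FPKM in the C group and 1332 and 1380 FPKM in the N group. What these tissues add to any other difference was not tested.

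**Figure D3:**
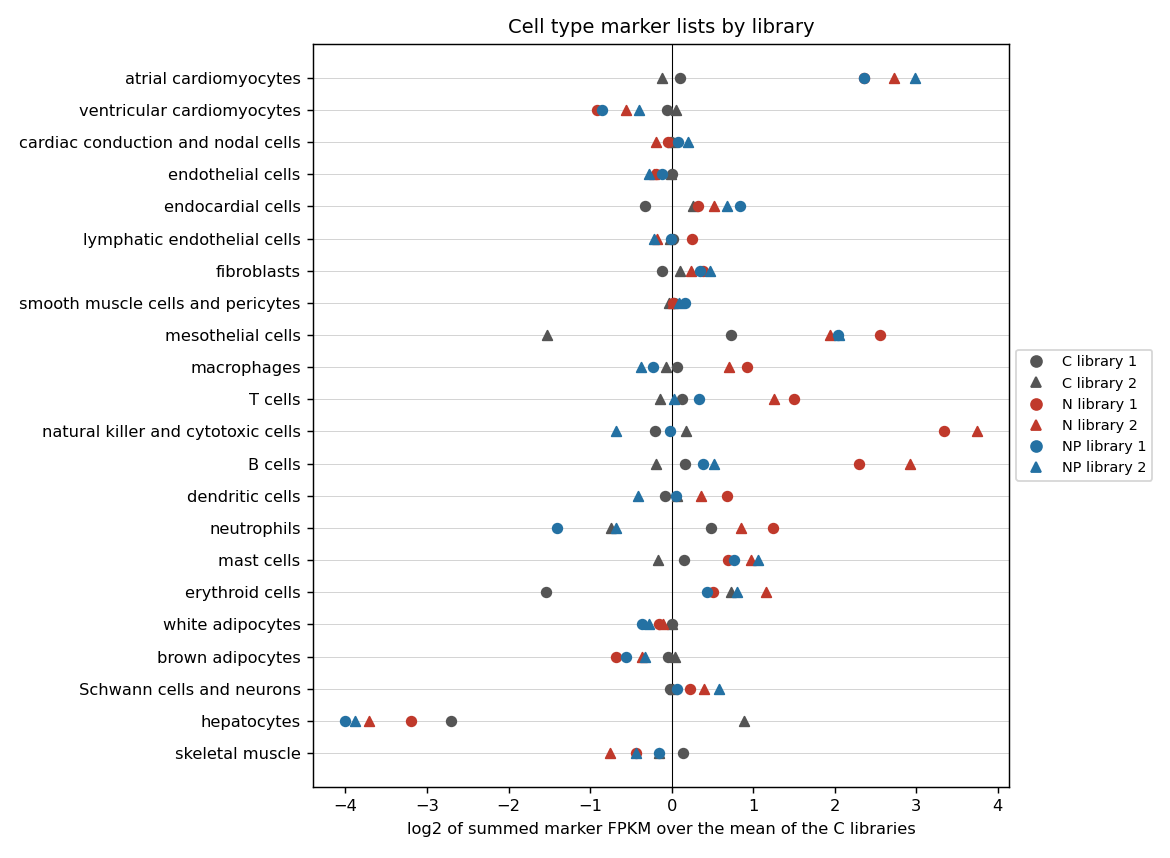
Summed FPKM of cell type marker lists in each library (x axis, log2 of the ratio to the mean of the C libraries). Atrial and mesothelial sums of N and NP lie together above those of C. The leukocyte sums are highest in the N libraries, except for mast cells, where N and NP overlap. The hepatocyte sum is highest in the second C library, at 711.3 FPKM.

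A small set of genes for lipid and redox handling was higher in the N group and had similar levels in the NP group. LXR receptors are activated by oxysterols and raise genes for sterol efflux and fatty acid synthesis. Of 19 LXR targets, 2 were higher and 0 lower, with a median of 0.50. Abcg1, a sterol exporter (chromosome 17, 31057694 to 31117984), was 1.18 and 0.972 FPKM in the C group, 4.31 and 3.67 FPKM in the N group, with 2.82 and 2.97 FPKM in the NP group, with a difference of 1.26 ± 0.13 and an adjusted P value of 0.0121 in limma. Scd2, a fatty acid desaturase (chromosome 19, 44293676 to 44306864), was 4.08 and 4.28 FPKM in the C group, 12.2 and 11.4 FPKM in the N group, with 12.1 and 15.2 FPKM in the NP group. Both N libraries were above both C libraries for each gene. Abca1, the other main exporter, differed by 0.63 with an adjusted P value of 0.181 (limma). Scd1 was 4.36 and 8.19 FPKM in the C group but 135 and 38.4 FPKM in the N group, and Fasn, the fatty acid synthase, 3.62 and 3.32 against 22.6 and 7.56 FPKM; both are abundant in fat, the N libraries differed widely, and neither gene passed. Genes for cholesterol synthesis and uptake, which are turned down when cells are loaded with sterol, had 0 of 28 called and a median of −0.05. Ucp2, an uncoupling protein of the inner mitochondrial membrane, rose from 51.1 and 58.7 FPKM to 124 and 113 FPKM, with 98.1 and 101 FPKM in the NP group. For Abcg1 and Ucp2 the NP libraries lay between the C and the N libraries. Gpx3, a secreted glutathione peroxidase, rose from 158 and 134 FPKM to 357 and 352 FPKM, with 355 and 391 FPKM in the NP group. Hmox1, a target of NRF2, was 15.6 and 9.21 FPKM in the C group and 10.8 and 16.4 FPKM in the N group, so that the groups overlapped. The calls of Scd2, Abcg1 and Ucp2 were each lost when any 1 of the 4 N or C libraries was left out, and that of Gpx3 without the second C library or either N library.

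Lower genes were few. Mgst3, a microsomal glutathione transferase (chromosome 1, 167371966 to 167393841), was 644 and 675 FPKM in the C group, 375 and 355 FPKM in the N group, with 417 and 416 FPKM in the NP group. Scgb1c1, a secretoglobin, was 58.3 and 50.8 FPKM against 16.7 and 17.0 FPKM. Gchfr, the feedback regulator of GTP cyclohydrolase, was 8.73 and 9.28 FPKM against 2.99 and 3.26 FPKM. Also lower were Klk14, Fam131a, D830032E09Rik, Smim4 and Atp6v0c-ps2; the last is a pseudogene whose reads may belong to its parent gene. The calls of these 8 genes were each lost when any 1 of the 4 C and N libraries was left out. Larger decreases that did not pass included the small RNA gene Snora31, at 134 and 163 FPKM in the C group and listed at 0 in both N libraries; FPKM of such short genes are unreliable. They also included liver genes that were highest in the second C library, such as Alb, serum albumin, with 10.8 and 211 FPKM in the C group and 0.555 and 1.25 FPKM in the N group. None of the 12 hepatocyte markers passed.

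**Figure D4:**
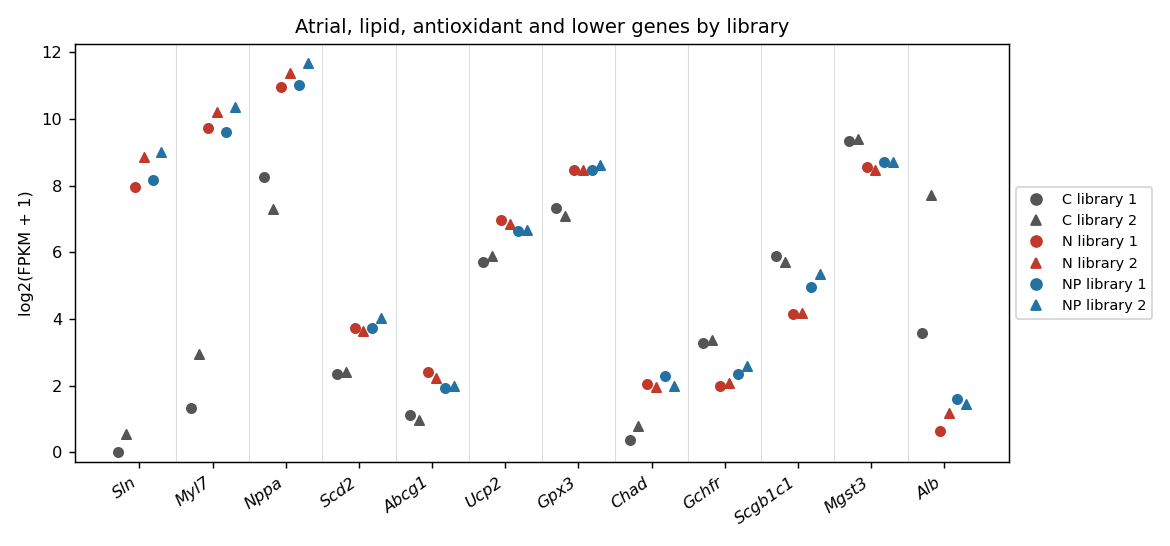
Level of 12 further genes in each library (y axis, log2(FPKM + 1)), with C in grey, N in red and NP in blue. The atrial genes Sln, Myl7 and Nppa, the lipid and redox genes Scd2, Abcg1, Ucp2 and Gpx3, and the cartilage matrix gene Chad are higher in the N and NP libraries than in the C libraries, Gchfr, Scgb1c1 and Mgst3 are lower, and Alb is highest in the second C library, at 211 FPKM.

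The heart draws most of its energy from the oxidation of fatty acids in mitochondria. Genes of this system were lower by small amounts in most members, but none passed the threshold. Over all genes tested, 55.1% had a negative difference and 6.76% were lower at an unadjusted P value under 0.05. In the respiratory chain, 77 of 78 members had a negative difference, with a median of −0.36. Of these 78, 34 were lower at an unadjusted P value under 0.05 and 0 were called by limma. The looser rule was met downwards by 9, against 2.36% of all genes tested. The medians of complexes I to V ranged from −0.43 in complex III to −0.30 in complexes II and IV. Cox4i1, a subunit of complex IV, was 3728 and 3884 FPKM in the C group, 2193 and 2589 FPKM in the N group, with 2423 and 2576 FPKM in the NP group, with a difference of −0.68 ± 0.13 and an adjusted P value of 0.0807 in limma. Of 32 genes for fatty acid oxidation, 29 had a negative difference, 13 were lower at an unadjusted P value under 0.05, and 0 were called by limma, with a median of −0.28. Acadm, the medium-chain acyl-CoA dehydrogenase, was 990 and 1093 FPKM against 708 and 733 FPKM. Cpt1a, a PPARα-responsive gene of the carnitine shuttle, differed by −0.11. In the tricarboxylic acid cycle the median was −0.25 over 21 genes, and Mdh2, the mitochondrial malate dehydrogenase, differed by −0.49. Medians of the NP group were −0.28, −0.29 and −0.18 for these 3 programmes. Ventricular markers had a median of −0.33, with Myl2, the ventricular light chain, at 24052 and 26366 FPKM in the C group and 11855 and 17042 FPKM in the N group. When libraries were scaled to the same total, the median of all genes moved from −0.03 to 0.12, and the medians of the respiratory chain, fatty acid oxidation and the tricarboxylic acid cycle were −0.19, −0.10 and −0.07. With quantile normalization these medians were −0.175, −0.196 and −0.10. Of the 73 ribosomal proteins, 58 had a negative difference as well, with a median of −0.157.

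**Figure D5:**
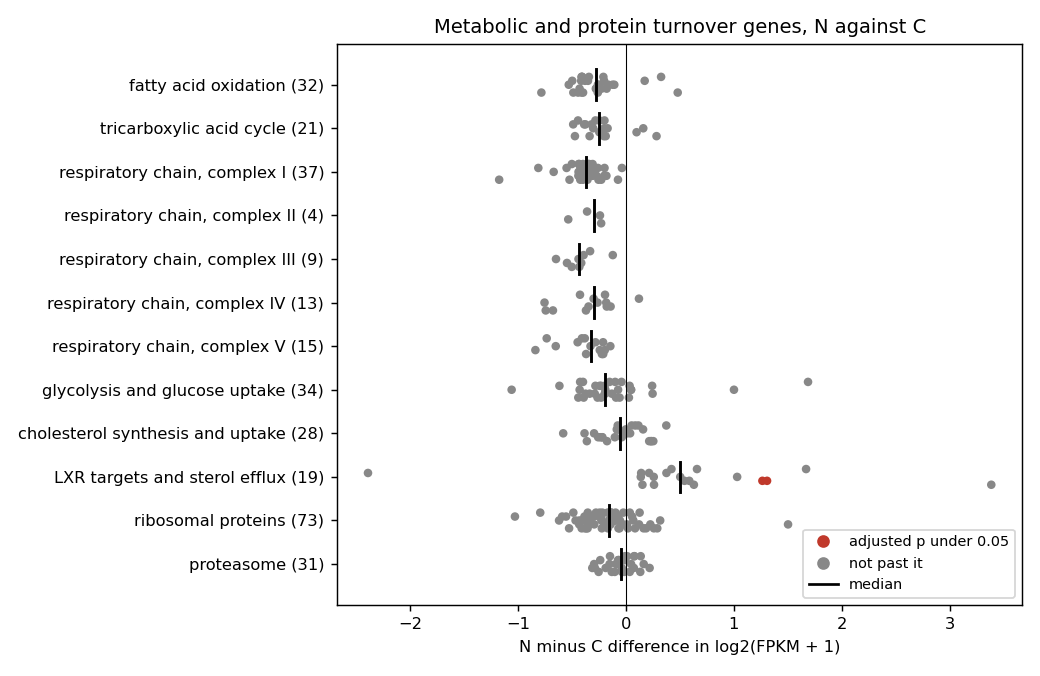
Difference between the N and C groups of single genes (x axis, log2(FPKM + 1)) in metabolic and protein turnover programmes, with black bars at the medians and red points for adjusted P values under 0.05. Nearly all respiratory chain genes lie below 0, and the only red points are the LXR targets Abcg1 and Scd2, at 1.26 and 1.31.

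Glucose metabolism held both directions without a call. Eno3, the muscle enolase, was 1220 and 1258 FPKM in the C group and 844 and 774 FPKM in the N group, whereas Pfkfb3, which activates glycolysis, was 2.54 and 2.70 FPKM against 8.43 and 13.4 FPKM, with adjusted P values of 0.0663 and 0.0758 in limma. The median over 34 genes was −0.19. Of the PPARα-responsive genes, Ucp2 alone passed, and the 2 N libraries disagreed: the median over the 14 genes was −0.13 in the first and −0.82 in the second. Pdk4, the kinase that holds back glucose oxidation and a member of that list, was in the first N library at 996 FPKM and in the second at 129 FPKM, with 1038 and 1108 FPKM in the C group.

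Programmes of fibrosis, growth and stress contained few calls. Of 51 matrix genes, 1 was higher and 1 was lower; the higher one was Chad, which encodes chondroadherin. Chad was 0.288 and 0.732 FPKM in the C group, 3.14 and 2.85 FPKM in the N group, with 3.85 and 3.0 FPKM in the NP group. Among fibrillar collagens, Col1a1, Col1a2 and Col3a1 differed by 0.36, 0.44 and 0.11, and the fibroblast activation gene Postn by 0.54; none passed. No gene was called in limma among 29 of the cell cycle, 24 heat shock genes, 28 of the endoplasmic reticulum and integrated stress response, 20 glucocorticoid-responsive genes, 15 hypoxia-responsive genes or 73 ribosomal proteins, in which 2, 3, 2, 4, 2 and 11 genes had an unadjusted P value under 0.05, a P value that 15% of all genes tested had. Nr4a3, an orphan nuclear receptor of the immediate early group, was 2.88 and 2.44 FPKM in the C group, 10.6 FPKM in both N libraries, and 4.47 and 5.77 FPKM in the NP group, with a difference of 1.67 ± 0.15 and an adjusted P value of 0.00635 in limma; the call was lost without the second C or the second N library. Casp1, the inflammasome protease, was 1.54 and 1.55 FPKM against 3.21 and 4.29 FPKM, with an adjusted P value of 0.0713 (limma).

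The circadian clock separated the 2 libraries within the diet groups. Clock genes cycle over the day, so that their levels depend on the hour at which tissue is taken, and Arntl, an activator, peaks when its target Dbp is low. Dbp was 19.1 and 21.4 FPKM with chow, 3.62 and 48.8 FPKM in the N group, with 2.72 and 64.4 FPKM in the NP group. Arntl was 7.56 and 7.87 FPKM with chow, 14.8 and 2.05 FPKM in the N group, with 15.7 and 2.0 FPKM in the NP group. The repressor Ciart was 0.764 and 11.9 FPKM in the N libraries. The first libraries of the N and NP groups were alike, as were the second ones, and the C libraries lay between them. None of the 19 clock genes passed in limma, with 0 at an unadjusted P value under 0.05. The libraries within the N group, and those within the NP group, also carried names of different form, whereas the C libraries were named alike. Neither the hour of sampling nor whether the libraries of a group were collected together is given in the sources used here.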

How the data were processed

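Heart RNA from 6 mouse libraries was sequenced by the authors in 75-base single-end mode after a stranded mRNA kit. Reads were mapped to mm10 with TopHat2 2.0.13, Bowtie2 2.2.3 and SAMtools 0.1.19, and Cufflinks 2.2.1 gave the deposited FPKM values, per the labels and the methods of the study. The gene annotation is not given in the sources used here. Read counts were not used. Groups were taken from the labels.

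FPKM were used as log2(FPKM + 1) without rescaling. Genes with a mean under 0.5 FPKM over the 6 libraries were left out, and 12923 genes remained. A gene that was low in the C and NP groups could pass this filter through the N libraries alone. A model with 3 groups was fitted with limma 3.58.1 in R 4.3.3, with moderation that follows the mean level, and P values of N minus C were adjusted by the Benjamini-Hochberg method over all tested genes (threshold 0.05, two-sided). Standard errors are those of limma. The test was tried on simulated data first. Figures and tables were made with matplotlib 3.10.9, pandas 2.3.3 and numpy 2.4.6 under Python 3.11.15.

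Depth was estimated from values of at most 5 reads in 3912 genes with 1 transcript in GENCODE M21, with 200 bases taken off the length. Between 75.1% and 79.4% of these values per library lay within 0.1 of a whole read. Intervals from depth were not computed, since FPKM are not counts.

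The comparison, the 28 programme lists and the 22 cell type marker lists (1109 entries, 1102 found, 1 under another symbol) were chosen with earlier results of these data known. The rule for naming genes took, outside the cytokine and chemokine families, the 15 largest increases and 15 largest decreases among called genes without overlap, filled up by the smallest P value, the 3 members of each programme with the largest moderated t, all called members, 5 defining markers and 5 genes that the study measured by PCR, of which Nlrp3 was under the filter. It gave 172 genes. Other members are named as examples of their lists and were chosen after their values were seen. Promoters, from RefSeq on GRCm38.p6 (the same build as mm10), were found for 9776 of the tested genes. Positions came from RefSeq for 199 of the 200 called genes. Some genes that the rule names are not reported here.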

Additional observations from a re-analysis of the deposited data

How the results depend on the processing

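The count of called genes, 200 in all with 191 higher and 9 lower, stayed within 1.5-fold with a pseudocount of 0.1, no filter, quantile normalization, shifting to the same median, the N and C libraries alone, or no trend. With a filter at 5 FPKM it was 132, of which 121 were higher. This filter takes genes out of the test: 88 of the 105 called genes that the rule names remained, and 87 of these kept their call. When libraries were scaled to the same total it was 309, of which 300 were higher, because this scaling moves the median of all genes from −0.03 to 0.12; the medians of the sarcomere, calcium handling, ion channel, clock, proteasome, ribosomal, hypoxia, glucocorticoid, antioxidant and cholesterol lists turn positive under it, while those of the interferon and MHC lists, positive in every setting, and of the respiratory chain, negative, do not change sign. With the atrial score as a covariate 0 genes were called, 0 higher and 0 lower, with 2672 at an unadjusted P value under 0.05. Of the 105 called genes that the rule names, 6 reversed: Dkk3 to −0.40, Atp6v0c-ps2 to 2.86, Psme2 to −0.073, Xaf1 to −0.22, Irf1 to −0.04 and Gja5 to −0.49. Sign changes of named genes that were not called are left out of this count. Leaving out each library in turn gave 49 to 183 genes in all, 41 to 156 higher and 5 to 95 lower, where the lone library of an arm is assumed to vary like the others; 40 of the 200 calls were shared without the second C library and 85 without the first. Of 105 called genes that the rule names, 31 kept their call under all settings but the covariate, and all 31 were higher. Nlrc5, Ciita and Tgtp1 are counted among these 31, but fell under the filter at 5 FPKM and were not tested in that setting. With the replicate block the count of called genes was 328, with 54 lower, and 198 calls were shared. The numbers do not pair the samples by design: the correlation of same-numbered deviations was 0.05 between the C and N groups, 0.12 between C and NP and 0.46 between N and NP. Low depth of the N libraries limits what can be said of genes near the filter.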

Other observations

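Other immune genes outside the lists were also called higher in the N group, and they are named here after their values were seen. Plac8 was 0.548 and 0.380 FPKM in the C group and 5.39 and 10.3 FPKM in the N group. Ido1, which degrades tryptophan and is induced by interferon gamma, was 0.350 and 0.248 FPKM against 3.0 and 1.79 FPKM, with 0.250 and 0.242 FPKM in the NP group. Vmn1r58, annotated as a vomeronasal receptor, was 0.994 and 1.23 FPKM in the C group, 33.3 and 47.1 FPKM in the N group, and 1.12 and 1.52 FPKM in the NP group. Its promoter window holds 1 GAS match, 4 bases after the start site.

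Melan-A, encoded by Mlana, was listed at 0 in both C libraries and was 9.61 and 12.7 FPKM in the N group and 10.8 and 8.34 FPKM in the NP group. Ppp1r1b was 0.182 and 0.252 FPKM in the C group, 3.26 and 5.57 FPKM in the N group, and 4.73 and 8.04 FPKM in the NP group.

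The inducible heat shock gene Hspa1a was 0.803 and 0.691 FPKM in the C group, 1.40 and 18.0 FPKM in the N group, and 0.699 and 3.57 FPKM in the NP group, and Hspa1b was 0.739 and 16.7 FPKM in the N group, so that the second libraries of both diet groups were the high ones.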
